A study of Mus musculus with 18 samples.

Results

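The genes described are those encoded on the mitochondrial chromosome, taken as every row of the deposited count table whose symbol starts with mt-. There were 13 such rows of 32285, and they are the 13 protein-coding genes of that chromosome. The annotation of the mouse genome used for coordinates (GENCODE, build GRCm38) places 37 genes on it, and the other 24, which are 2 ribosomal RNA and 22 transfer RNA genes, were not analysed here. RNA was measured in pieces cut from frozen kidney sections of male C57BL/6 iKspCre-Pkd1del mice. In these mice a tamoxifen-inducible Cre recombinase, labelled as specific to the kidney with no cell type given, removes exons 2 to 11 of Pkd1, a gene mutated in polycystic kidney disease. All libraries come from mice given tamoxifen at 12.5 mg/kg by gavage on postnatal days 18 and 19 and killed in the mild cystic phase. Every group thus comes from mice treated to induce the deletion, and none is wild type. This leaves no group against which Pkd1 counts could check the deletion in the pieces. The 3 groups are cystic regions rich in F4/80 (F4/80-high), cystic regions poor in it (F4/80-low) and non-cystic regions, F4/80 being a surface protein of mouse macrophages encoded by Adgre1. Each region type was taken from the same 3 kidneys with 2 libraries a kidney, which gives 6 libraries a region type and 18 in all. The labels number the kidneys without saying whether they come from separate mice, and give ages of 269 for kidneys 1 and 3 and 297 for kidney 2, with no unit. Before testing, the counts of both libraries from one kidney's regions of a type were added up, so n is 3 kidneys throughout unless stated. Kidney was fitted as a block, so p-values rest on how far the differences between region types vary from kidney to kidney. That spread is shrunk toward the trend over all genes tested, so it is borrowed in part from other genes.

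Mitochondrial DNA is a small circle that encodes only subunits of the respiratory chain and ATP synthase, together with the ribosomal and transfer RNAs needed to make them. Its strands are transcribed as long RNAs that span many genes, and transfer RNAs, which stand between many of the protein genes, mark places where these RNAs are cut. Protein genes that share bases have no transfer RNA between them. Complexes I, III, IV and V are each built from mitochondrially encoded and nuclear-encoded subunits, whereas complex II is nuclear-encoded throughout. In the kidney, proximal tubule and thick ascending limb cells are dense in mitochondria because they drive solute transport with ATP from respiration.

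The arrangement of the genes decides what a count of each one can mean, and the stretches shown here are those where 2 genes share bases or where a nuclear copy exists. The frames of mt-Atp8 (chrM:7766-7969) and mt-Atp6 (chrM:7927-8607) overlap by 43 bases, so 161 of the 204 bases of mt-Atp8 belong to no other row. The frames of mt-Nd4l (chrM:9877-10173) and mt-Nd4 (chrM:10167-11544) overlap by 7 bases, and the last base of mt-Atp6 is the first of mt-Co3 (chrM:8607-9390). The whole of mt-Atp8, and 60 bases of each partner of the other overlap, read as follows on the plus strand of GRCm38 (GENCODE M21 transcripts), with the shared bases in capitals.
mt-Atp8, chrM:7766-7969: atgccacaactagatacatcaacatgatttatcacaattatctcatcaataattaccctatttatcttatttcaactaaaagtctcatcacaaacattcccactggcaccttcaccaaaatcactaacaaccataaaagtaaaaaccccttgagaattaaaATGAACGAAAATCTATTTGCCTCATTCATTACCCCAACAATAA
mt-Nd4l, last 60 bases, chrM:10114-10173: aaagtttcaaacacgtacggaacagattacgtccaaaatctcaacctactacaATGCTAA
mt-Nd4, first 60 bases, chrM:10167-10226: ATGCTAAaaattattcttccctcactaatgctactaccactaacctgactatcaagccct
The capitals of mt-Nd4l and mt-Nd4 are the same 7 bases, in which one frame ends and the other begins. Of the 13 genes, mt-Nd6 (chrM:13552-14070) alone is on the minus strand, where its exon overlaps that of mt-Nd5 (chrM:11742-13565) by 14 bases. The library kit does not mark strand, so reads from mt-Nd6 and from RNA of the opposite strand at that place cannot be told apart.

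Nuclear copies of mitochondrial DNA cover part of the set. On chromosome 1, 7 annotated unprocessed pseudogenes stand in one run on the minus strand (chr1:24611535-24616197, 4663 bases) in the order of the mitochondrial genes: Gm29216 copies mt-Co1, Gm28661 mt-Co2, Gm10925 mt-Atp6, Gm28437 mt-Co3, Gm28438 mt-Nd3, Gm10222 mt-Nd4l and Gm28439 mt-Nd4. Base by base without gaps, 5 of the 7 copies had 0 differences from their gene over their whole annotated length, of 681 bases for mt-Co2, 678 for mt-Atp6, 783 for mt-Co3, 294 for mt-Nd4l and 876 for mt-Nd4. The copy of mt-Co1 differed at 6 of 492 bases. The copy of mt-Nd3 differed at 1 of 345 bases, and its window is shown because that base is all that separates the pair, with the difference (T3C, counted from 1 at the first base of the gene) in capitals.
mt-Nd3, chrM:9459-9538, plus strand: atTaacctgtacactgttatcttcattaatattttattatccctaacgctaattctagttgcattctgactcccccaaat
Gm28438, chr1:24613040-24613119, minus strand: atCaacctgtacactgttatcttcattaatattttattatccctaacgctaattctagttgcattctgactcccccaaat
No pseudogene is annotated opposite mt-Atp8, but the copies of mt-Co2 and mt-Atp6 are 233 bases apart, and mt-Co2 and mt-Atp6 themselves are 230 bases apart with mt-Atp8 beginning inside that gap. The copies themselves were not analysed here. Of all 50-base windows of each gene, the share found in another annotated transcript was complete for mt-Co2, and it was 99.9% for mt-Co3, 99.5% for mt-Atp6, 98.8% for mt-Nd4l, 98.0% for mt-Nd3, 62.2% for mt-Nd4 and 51.1% for mt-Co1. It was 8.19% for mt-Nd2 and 7.61% for mt-Nd5, and 0 for mt-Nd1, mt-Nd6, mt-Cytb and mt-Atp8.

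The mitochondrially encoded genes took far fewer of the reads in F4/80-high regions than in the other region types. Their summed share of all counts was 1.49% to 4.06% over the 6 F4/80-high libraries (median 2.89%), 7.71% to 11.1% over the F4/80-low libraries (median 9.12%) and 10.6% to 15.4% over the non-cystic libraries (median 11.9%). All 6 F4/80-high libraries lay below all the others, while F4/80-low and non-cystic libraries overlapped. Summed by kidney, the share in kidneys 1, 2 and 3 was 2.90%, 3.55% and 1.77% in F4/80-high regions, 8.67%, 8.54% and 10.3% in F4/80-low regions and 11.7%, 11.0% and 14.2% in non-cystic regions, so each kidney had the same order of region types. Libraries held 5841975 to 8662288 counts in F4/80-high regions, 7186518 to 9188813 in F4/80-low regions and 5366651 to 9002054 in non-cystic regions. Counts behind the weakly counted members stand beside their levels.

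Markers of cell types, injury markers and signs of RNA make-up differed between the region types too, though not all in the order of this share. The 12 proximal tubule markers together took 0.373%, 0.789% and 0.115% of counts in F4/80-high regions of kidneys 1, 2 and 3, against 3.01%, 2.94% and 4.80% in F4/80-low regions and 3.95%, 3.24% and 3.40% in non-cystic regions. Within F4/80-high regions the kidneys ranked alike for both, with kidney 2 highest and kidney 3 lowest. F4/80-low and non-cystic regions overlapped for the proximal tubule markers, and in kidney 3 the F4/80-low regions had more of them and less of the mitochondrially encoded RNA. In edgeR, F4/80-high against non-cystic, 11 of 12 proximal tubule markers fell (median log2 fold change -3.62), 8 of 8 macrophage markers rose (4.42) and 6 of 6 fibroblast markers rose (3.50), where 19.5% of all genes tested were called lower and 19.7% higher. Slc34a1, the proximal tubule phosphate transporter, averaged 207 ± 158 CPM in F4/80-high regions and 2092 ± 428 CPM in non-cystic regions (log2 fold change -3.56, SE 0.58, adjusted p = 0.00164). Adgre1, which encodes F4/80, averaged 53.9 ± 14.9 CPM in F4/80-high regions and 2.56 ± 0.96 CPM in non-cystic regions (log2 fold change 4.42, SE 0.31, adjusted p = 2.6e-05). The region types are defined by F4/80, so a higher Adgre1 was set by that choice, and the other macrophage markers are tied to it. The macrophage markers together took 0.244% to 0.798% of counts over the 3 kidneys in F4/80-high regions, 0.0351% to 0.0393% in F4/80-low regions and 0.00737% to 0.0106% in non-cystic regions. Also in F4/80-high against non-cystic, 4 of 5 distal convoluted and connecting tubule markers, 2 of 4 thick ascending limb, 2 of 5 intercalated cell and 1 of 5 principal cell markers fell, 4 of 5 lymphocyte markers rose, 1 of 5 endothelial markers rose and 1 fell, and 0 of 4 podocyte markers were called (edgeR). For the podocyte markers, 0 had an unadjusted p under 0.05 in either direction. Thick ascending limb markers together took 0.0664% ± 0.0318 of counts in F4/80-high, 0.187% ± 0.109 in F4/80-low and 0.0918% ± 0.00922 in non-cystic regions (SD over kidneys). Intercalated cell markers took 0.0186% ± 0.00501, 0.0117% ± 0.00827 and 0.0380% ± 0.0208 in the same regions. The means of the distal convoluted and connecting tubule and of the principal cell markers kept the order of the mitochondrially encoded share. No marker of any list was at 0 in a region type. Spp1, the gene of the secreted phosphoprotein osteopontin, alone took 6.41% to 14.1% of counts in F4/80-high libraries, 0.241% to 8.90% in F4/80-low libraries and 0.0433% to 0.332% in non-cystic libraries. Spp1 and 2 more genes known to rise in injured tubules were higher in F4/80-high than in non-cystic regions. Havcr1, the kidney injury molecule of the proximal tubule, averaged 340.0 ± 70.3 CPM in F4/80-high regions and 1.1 ± 1.22 CPM in non-cystic regions (log2 fold change 8.53, SE 1.01, adjusted p = 0.00115), and Lcn2, which encodes a lipocalin released by injured tubules, averaged 195 ± 40.6 CPM in F4/80-high regions and 1.17 ± 1.59 CPM in non-cystic regions (log2 fold change 7.91, SE 0.96, adjusted p = 0.00142). Malat1, a nuclear non-coding RNA, took 6.59% to 9.59% of counts in F4/80-high libraries, 4.62% to 8.42% in F4/80-low libraries and 4.26% to 6.48% in non-cystic libraries, so that F4/80-high and non-cystic libraries did not overlap in it. After TMM scaling its log2 fold change in F4/80-high against non-cystic was -0.04 (edgeR adjusted p = 0.96). Neat1, another nuclear RNA, fell there (log2 fold change -0.65, SE 0.22, adjusted p = 0.0433). F4/80-high libraries had 20033 to 20969 genes with a count, F4/80-low libraries 17804 to 19458 and non-cystic libraries 17070 to 19594. The part of these differences in the values of the mitochondrially encoded genes was not tested, and in pieces of tissue fewer cells of a type and less RNA per cell cannot be told apart.

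**Figure D1:**
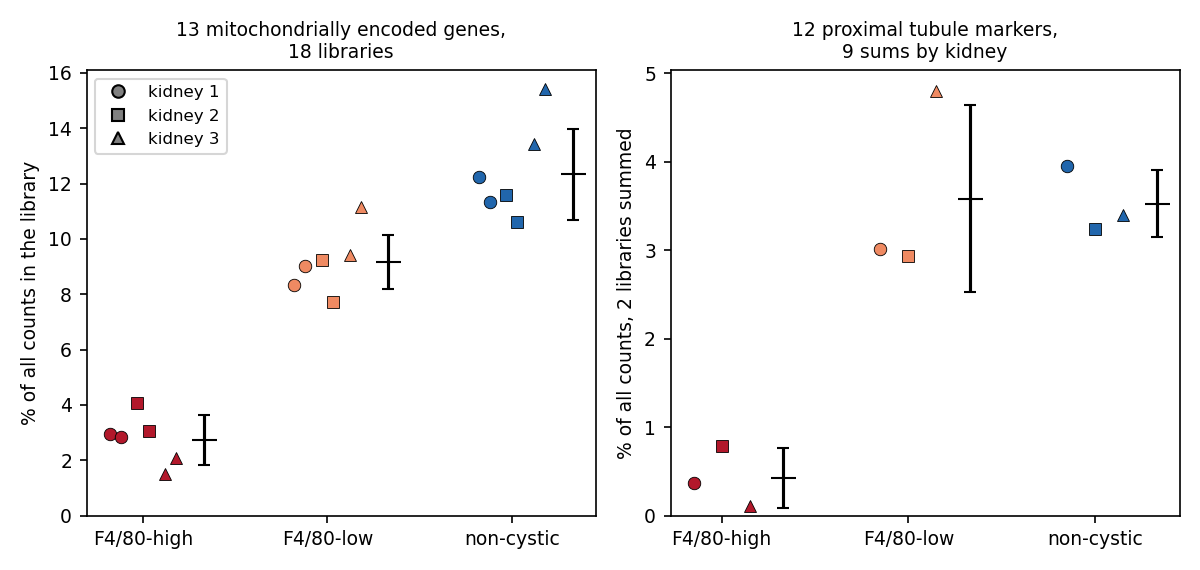
Share of all counts (%) taken by the 13 mitochondrially encoded genes in each of 18 libraries (left) and by 12 proximal tubule markers in the 9 sums of 2 libraries (right). Symbols mark kidneys, and bars give the mean ± SD over 3 kidneys. The F4/80-high libraries lie at 1.49% to 4.06% on the left, below all the others.

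Levels of single genes are given as CPM (counts scaled to a fixed library size) scaled further by the trimmed mean of M values (TMM-scaled CPM), a scaling that matches the bulk of genes between sums, and each triplet of values runs over kidneys 1, 2 and 3. Fold changes come from edgeR's quasi-likelihood fit with kidney as a block, and p-values are adjusted by Benjamini-Hochberg over all 16034 genes tested, with a call at an adjusted p below 0.05. All 13 members passed the filter on low counts. In F4/80-high against non-cystic regions all 13 fell, where 19.5% of all genes tested were called lower. In F4/80-high against F4/80-low regions all 13 fell as well, where 14.0% of all genes were called lower. In F4/80-low against non-cystic regions 0 of 13 were called in edgeR, where 0.0249% of all genes were called lower. Those 3 comparisons share samples with each other, so they are not separate pieces of evidence.

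Complex I, the NADH dehydrogenase that feeds electrons into the chain, has 7 mitochondrially encoded subunits, all in its membrane arm. mt-Nd1 (chrM:2751-3707) had 2549.7, 3569.5 and 1575 CPM in F4/80-high regions, 8968, 10015 and 12213 CPM in F4/80-low regions and 15045, 14344 and 16762 CPM in non-cystic regions. The 3 region types did not overlap, and each kidney had its lowest value in the F4/80-high region. Its log2 fold change in F4/80-high against non-cystic was -2.61 (SE 0.46, adjusted p = 0.00201). mt-Nd2 (chrM:3914-4951) had 1022, 1402 and 519 CPM in F4/80-high regions, 4485, 4559.7 and 5962 CPM in F4/80-low regions and 7672, 6501 and 8844 CPM in non-cystic regions. Again the region types did not overlap, and kidney 3 gave the widest gap. mt-Nd2 fell with a log2 fold change of -3.00 (SE 0.47, adjusted p = 0.00114). mt-Nd4 had 1819, 2511 and 890.1 CPM in F4/80-high regions, 7457, 9070.3 and 11005 CPM in F4/80-low regions and 14182, 11678 and 14365 CPM in non-cystic regions. Kidney 3 had the lowest mt-Nd4 level of the F4/80-high regions and the highest of both other region types. mt-Nd4 fell with a log2 fold change of -2.99 (SE 0.50, adjusted p = 0.00155). mt-Nd5 had 2292, 2577 and 1067 CPM in F4/80-high regions, 7721, 9074 and 10752 CPM in F4/80-low regions and 14870.0, 11765 and 14088 CPM in non-cystic regions. The F4/80-high values of kidneys 1 and 2 were close to each other and above that of kidney 3. mt-Nd5 fell with a log2 fold change of -2.81 (SE 0.48, adjusted p = 0.00168). mt-Nd6, the gene on the other strand, had 860.2, 1156 and 539.6 CPM in F4/80-high regions, 3836, 4300.0 and 4693 CPM in F4/80-low regions and 5657, 4902 and 6659 CPM in non-cystic regions. Its log2 fold change in F4/80-low against non-cystic, -0.43 (SE 0.38, adjusted p = 0.781), was the smallest of the 13. In F4/80-high against non-cystic its log2 fold change was -2.78 (SE 0.41, adjusted p = 0.000867).

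The other complex I subunits, mt-Nd3 (chrM:9459-9806) and mt-Nd4l, were counted at a small part of those levels. mt-Nd3 had 2.94, 4.94 and 3.09 CPM in F4/80-high regions, 11.2, 11.0 and 11.4 CPM in F4/80-low regions and 20.4, 13.7 and 20.4 CPM in non-cystic regions. Its counts were 56, 100 and 56 in F4/80-high sums, 165, 167 and 152 in F4/80-low sums and 231, 187 and 263 in non-cystic sums. Its F4/80-low values were nearly the same in the 3 kidneys. The log2 fold change of mt-Nd3 in F4/80-high against non-cystic was -2.31 (SE 0.29, adjusted p = 0.000369), the smallest of the 13. mt-Nd4l had 1.68, 1.78 and 0.551 CPM in F4/80-high regions, 5.23, 6.56 and 8.56 CPM in F4/80-low regions and 13.9, 11.8 and 19.6 CPM in non-cystic regions. These rest on 32, 36 and 10 counts in F4/80-high sums, 77, 100 and 114 in F4/80-low sums and 158, 161 and 253 in non-cystic sums. The regions did not overlap for either gene. mt-Nd4l fell with a log2 fold change of -3.46 (SE 0.45, adjusted p = 0.000492). It also had the largest difference between F4/80-low and non-cystic regions, at -1.16 (SE 0.39, adjusted p = 0.257), which did not pass the threshold.

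Complex III passes electrons from ubiquinol to cytochrome c, and its mitochondrially encoded subunit is cytochrome b. mt-Cytb (chrM:14145-15288) had 10703, 12676 and 4751 CPM in F4/80-high regions, 40692, 40821 and 57933 CPM in F4/80-low regions and 71989, 57043 and 72727 CPM in non-cystic regions. F4/80-high regions were below all others, while the F4/80-low value of kidney 3 lay above the non-cystic value of kidney 2. The log2 fold change in F4/80-high against non-cystic was -2.87 (SE 0.60, adjusted p = 0.00464), and it carried the largest SE of the 13. mt-Cytb alone held 42.4% ± 3.17 of the set's counts in F4/80-high regions, 46.2% ± 2.69 in F4/80-low regions and 46.1% ± 1.36 in non-cystic regions (SD, n = 3 kidneys), so sums over the set follow this gene most of all.

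Complex IV, cytochrome c oxidase, reduces oxygen with a core of 3 mitochondrially encoded subunits. mt-Co1 (chrM:5328-6872), the subunit that holds the site of oxygen reduction, had 4156, 6104 and 2704 CPM in F4/80-high regions, 13220.0, 16406 and 16792 CPM in F4/80-low regions and 22894, 21424 and 21838 CPM in non-cystic regions. Its non-cystic values were the closest together of any member relative to their mean, and the 3 region types did not overlap. The log2 fold change of mt-Co1 in F4/80-high against non-cystic was -2.40 (SE 0.46, adjusted p = 0.00316). mt-Co2 (chrM:7013-7696), which binds cytochrome c, had 4.83, 14.9 and 5.9 CPM in F4/80-high regions, 65.2, 76.5 and 113 CPM in F4/80-low regions and 109.8, 96.4 and 162 CPM in non-cystic regions. Its counts were 92, 302 and 107 in F4/80-high sums, 960, 1166 and 1501 in F4/80-low sums and 1244, 1320 and 2086 in non-cystic sums. Kidney 2 stood above the others among the F4/80-high regions, and F4/80-low and non-cystic regions overlapped. The log2 fold change of mt-Co2 was -3.91 (SE 0.43, adjusted p = 0.000493), the largest fall of the 13. mt-Co3 had 9.45, 24.3 and 8.71 CPM in F4/80-high regions, 84.1, 122 and 131 CPM in F4/80-low regions and 178, 139 and 206 CPM in non-cystic regions. Its counts were 180, 491 and 158 in F4/80-high sums, 1239, 1867 and 1745 in F4/80-low sums and 2022, 1909 and 2659 in non-cystic sums. The region types did not overlap, and kidney 2 was again the highest F4/80-high region. mt-Co3 fell with a log2 fold change of -3.74 (SE 0.40, adjusted p = 0.000316).

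Complex V, the ATP synthase, takes from the mitochondrial chromosome a pair of subunits of its proton channel part, encoded by the overlapping frames shown above. mt-Atp6 had 13.5, 26.9 and 10.0 CPM in F4/80-high regions, 101, 106 and 153 CPM in F4/80-low regions and 196, 157 and 269 CPM in non-cystic regions. Its counts were 258, 545 and 182 in F4/80-high sums, 1484, 1611 and 2037 in F4/80-low sums and 2224, 2149 and 3472 in non-cystic sums. Its region types did not overlap. The log2 fold change of mt-Atp6 in F4/80-high against non-cystic was -3.64 (SE 0.41, adjusted p = 0.000417). mt-Atp8 had 1.94, 3.21 and 1.1 CPM in F4/80-high regions, 12.4, 13.1 and 18.6 CPM in F4/80-low regions and 21.7, 16.1 and 32.0 CPM in non-cystic regions. Its counts were 37, 65 and 20 in F4/80-high sums, 183, 200 and 248 in F4/80-low sums and 246, 221 and 413 in non-cystic sums. F4/80-high regions were below all others, and F4/80-low and non-cystic regions overlapped. mt-Atp8 fell with a log2 fold change of -3.43 (SE 0.42, adjusted p = 0.00048). Both genes fell, and reads in their shared 43 bases cannot be told apart between them.

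**Figure D2:**
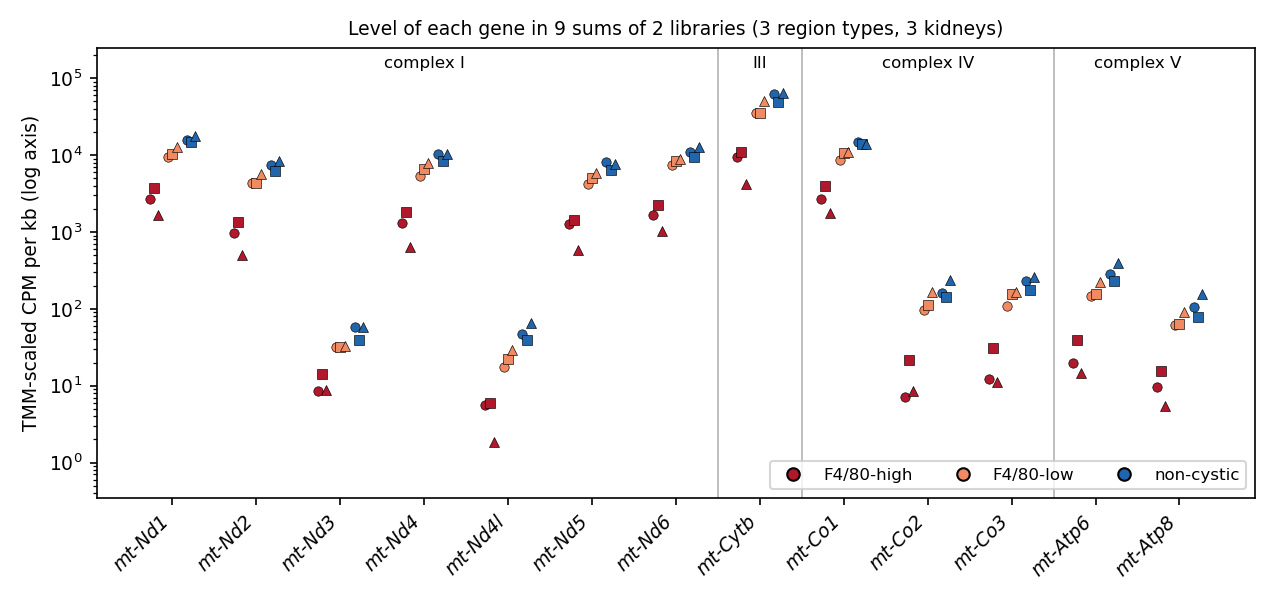
Level of each mitochondrially encoded gene as TMM-scaled CPM per kb (log axis) in 9 sums of 2 libraries, with region types in colour and kidneys 1, 2 and 3 as circles, squares and triangles. In all 13 genes the 3 F4/80-high points lie below the other 6. The plot also shows 7 genes at a far higher level than the other 6.

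Across the 13 genes the fall in F4/80-high regions had a common direction and an uneven size. Against non-cystic regions the log2 fold change ran from -2.31 for mt-Nd3 to -3.91 for mt-Co2 (median -3.00, against a median of 0.04 over all genes tested), which is a level of 0.202 to 0.0667 times that of non-cystic regions. Of all genes tested, 3.31% had a lower fold change than mt-Nd3 and 0.443% a lower one than mt-Co2. Both of these are weakly counted genes, and the 7 strongly counted genes ran only from -2.40 to -3.00. Against F4/80-low regions the log2 fold change ran from -1.61 for mt-Nd3 to -3.35 for mt-Co2 (median -2.35), and from -1.89 to -2.44 over those 7. Adjusted p-values there lay between 0.00194 for mt-Co3 and 0.0194 for mt-Cytb (edgeR). All 3 F4/80-high sums were below all 3 of the other region type in 13 of 13 genes, both against non-cystic regions (25.6% of all genes tested) and against F4/80-low regions (22.1%). In single libraries without TMM scaling, all 6 F4/80-high libraries were below all 6 non-cystic libraries in 13 of 13 genes, as was true of 6.52% of all genes, and below all 6 F4/80-low libraries in 13 of 13, as was true of 4.37%. With kidney 1 left out, which leaves 2 kidneys, edgeR called 11 of 13 in F4/80-high against non-cystic, without mt-Co1 and mt-Cytb, where 9.93% of all genes in that fit were called lower, and 2 of 13 in F4/80-high against F4/80-low, which were mt-Co2 and mt-Co3, where 3.19% were. With kidney 2 left out it called 13 (13.2% of all genes) and 9 (8.24%), and all fold changes stayed negative in these fits.

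The difference between F4/80-low and non-cystic regions was smaller and did not pass the test. Every one of the 13 genes was lower in the F4/80-low region in 3 of 3 kidneys, with log2 fold changes from -0.43 for mt-Nd6 to -1.16 for mt-Nd4l and a median of -0.57, against 0.00 over all genes. In edgeR 0 were called, 2 (mt-Nd3 and mt-Nd4l) had an unadjusted p under 0.05, against 2.35% of all genes in that direction, and DESeq2 called 0 too, against 0.462% of all genes lower. The TMM-scaled sums of the 2 region types did not overlap in 10 of 13 genes, as was the case for 6.72% of all genes tested with the F4/80-low region lower, and the exceptions were mt-Co2, mt-Atp8 and mt-Cytb. By single libraries, the groups did not overlap in mt-Co1 and mt-Nd5, against 0.0686% of all genes. Whether the step between F4/80-high and F4/80-low was larger than that between F4/80-low and non-cystic was tested as the difference of both steps. It was negative in all 13 genes (median -1.82), but edgeR called 0 of 13, where it called 0.0249% of all genes lower. An unadjusted p under 0.05 was reached by 8 of the 13, against 9.12% of all genes in that direction, and DESeq2 called 3 of them, against 1.93% of all genes.

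**Figure D3:**
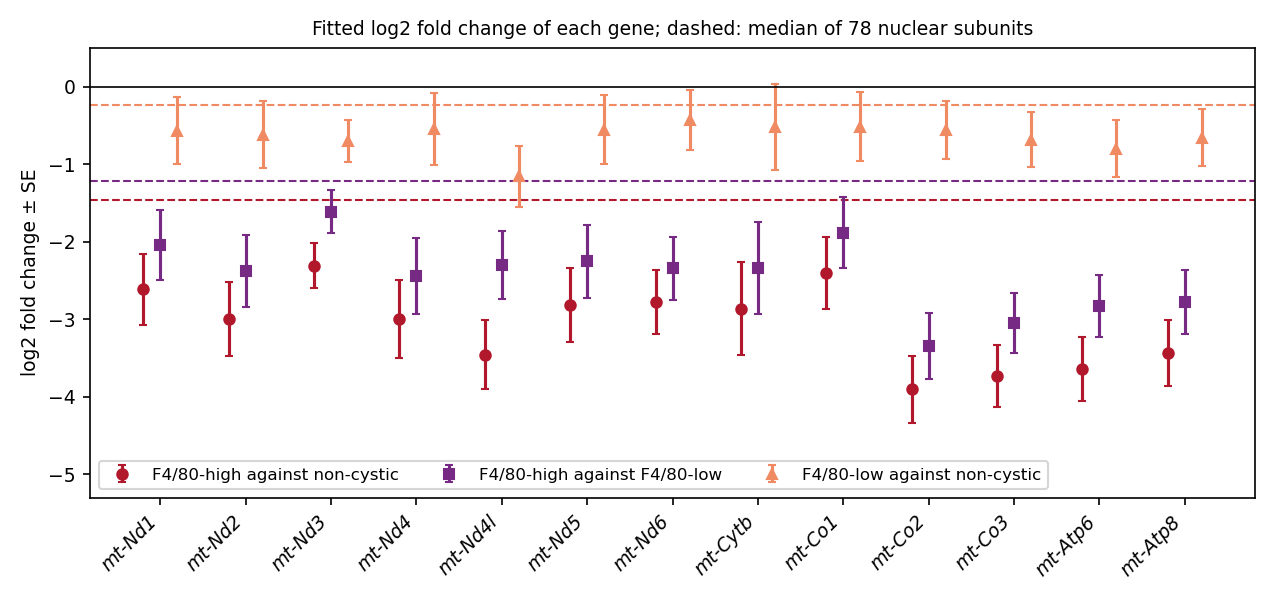
Fitted log2 fold change of each gene with its SE (bars) for the 3 comparisons, and the median of 78 nuclear-encoded subunits of the respiratory complexes in the same comparison (dashed lines). All 13 genes lie below the nuclear median of -1.46 in F4/80-high against non-cystic, and between -0.43 and -1.16 in F4/80-low against non-cystic, where 0 were called.

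The make-up of the set shifted along with its size. As a share of the set's own counts, a measure that no scaling between libraries can change, mt-Co1 took 20.1% ± 2.34 in F4/80-high regions, against 15.5% ± 1.68 in F4/80-low and 15.2% ± 1.38 in non-cystic regions (SD, n = 3 kidneys). It was higher in the F4/80-high region in 3 of 3 kidneys. mt-Nd1 took 11.9% ± 1.09 in F4/80-high regions, 10.4% ± 0.198 in F4/80-low regions and 10.6% ± 0.690 in non-cystic regions, also higher in 3 of 3 kidneys. mt-Nd4 took 7.83% ± 0.493 in F4/80-high regions, 9.13% ± 0.495 in F4/80-low regions and 9.20% ± 0.0811 in non-cystic regions, and was lower in 3 of 3 kidneys. mt-Nd2 and mt-Cytb were lower in 3 of 3 kidneys as well, while mt-Nd5 and mt-Nd6 were not of one direction. Of the 6 weakly counted genes, mt-Co2, mt-Co3, mt-Atp6, mt-Atp8 and mt-Nd4l took a smaller share of the set in F4/80-high than in non-cystic regions in 3 of 3 kidneys. The share of mt-Co2 was 0.0397% ± 0.0165 in F4/80-high regions and 0.0836% ± 0.0175 in non-cystic regions. mt-Nd3 went the other way in 2 of 3 kidneys, at 0.0182% ± 0.00669 in F4/80-high regions and 0.0124% ± 0.00147 in non-cystic regions. These shares are a description and were not tested gene by gene.

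The level per length separated the genes by where they lie. In non-cystic regions mt-Cytb had 58788 ± 7736 CPM per kb, mt-Nd1 16075 ± 1300.0, mt-Co1 14273 ± 491, mt-Nd6 11058 ± 1699, mt-Nd4 9730.2 ± 1089.6, mt-Nd5 7442 ± 886 and mt-Nd2 7392 ± 1128 (SD, n = 3 kidneys). mt-Cytb stood apart from the next gene by more than these spreads, as did mt-Nd1 from mt-Nd6, whereas mt-Nd5 and mt-Nd2 did not differ beyond theirs. The other 6 genes were at 305 ± 83.6 CPM per kb for mt-Atp6, 223 ± 42.8 for mt-Co3, 179 ± 50.5 for mt-Co2, 114 ± 39.5 for mt-Atp8, 52.1 ± 11.2 for mt-Nd3 and 50.9 ± 13.7 for mt-Nd4l. All 6 lie in one unbroken stretch of the chromosome, between mt-Co1 and mt-Nd4, and together they made up 0.351% of the set's counts. Of these genes, 5 had at least 98.0% of their windows in a nuclear copy, and mt-Atp8 lies in the stretch whose counterpart on chromosome 1 carries no annotation. mt-Co1 and mt-Nd4, whose copies cover 51.1% and 62.2% of windows, were at 14273 and 9730.2 CPM per kb. Of the genes with 0 copied windows, mt-Cytb, mt-Nd1 and mt-Nd6 were at 58788, 16075 and 11058 CPM per kb and mt-Atp8 at 114. The part of read assignment between the gene and its copy in these low levels was not tested, and how the authors' counting treated reads with several equal places is not stated in the labels or files. In F4/80-high against non-cystic regions the median log2 fold change was -3.55 over the 6 genes of the stretch (-2.31 to -3.91) and -2.81 over the other 7 (-2.40 to -3.00). The direction therefore was the same in genes with and without a copy, and mt-Nd1, mt-Nd6 and mt-Cytb, with 0 copied windows, fell in both comparisons of F4/80-high regions.

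**Figure D4:**
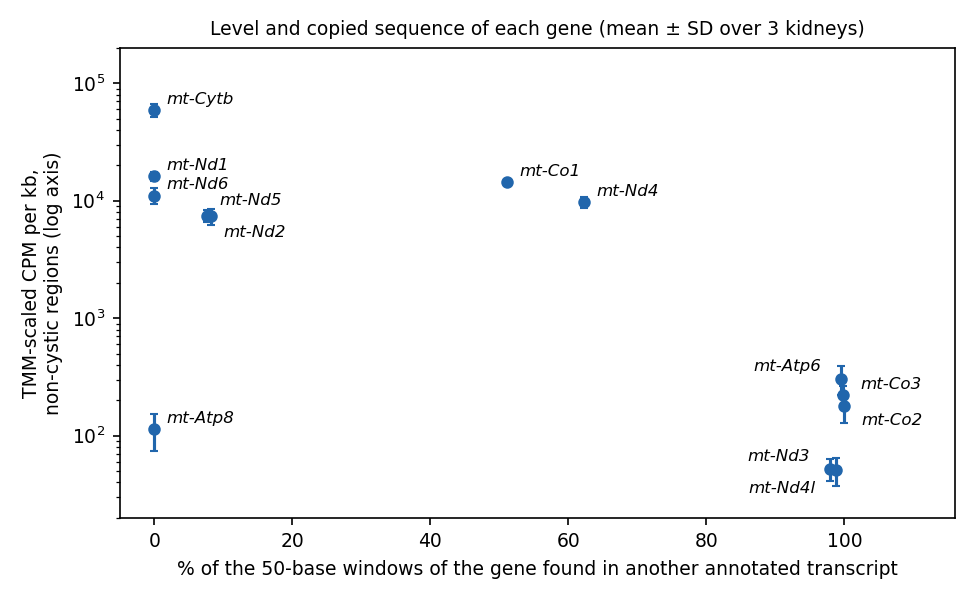
Level of each mitochondrially encoded gene in non-cystic regions (TMM-scaled CPM per kb, log axis, mean ± SD over 3 kidneys) against the percentage of its 50-base windows that occur in another annotated transcript. The 5 genes at 98.0% or more lie at 50.9 to 304.6 CPM per kb, and mt-Atp8, at 0%, lies with them at 114 CPM per kb.

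The nuclear-encoded partners of these proteins fell as well. Of 78 nuclear subunits of complexes I to V, 78 fell in F4/80-high against non-cystic regions (median log2 fold change -1.46) and 74 in F4/80-high against F4/80-low regions (median -1.22), against the same backgrounds of 19.5% and 14.0%. By complex, 37 of 37 subunits of complex I (median -1.41), 4 of 4 of complex II (-1.44), 9 of 9 of complex III (-1.63), 11 of 11 of complex IV (-1.51) and 17 of 17 of complex V (-1.44) fell against non-cystic regions. Ndufs1, an iron-sulfur subunit of complex I, averaged 54.9 ± 17.7 CPM in F4/80-high regions and 167 ± 8.58 CPM in non-cystic regions (log2 fold change -1.62, SE 0.26, adjusted p = 0.00115). Cyc1, the cytochrome c1 of complex III, averaged 196 ± 78.4 CPM in F4/80-high regions and 614 ± 155 CPM in non-cystic regions (log2 fold change -1.69, SE 0.31, adjusted p = 0.0023). Cox4i1, a structural subunit of complex IV, averaged 915 ± 349 CPM in F4/80-high regions and 2389 ± 478 CPM in non-cystic regions (log2 fold change -1.43, SE 0.34, adjusted p = 0.0089). The 78 log2 fold changes lay between -0.61 and -1.93, and those of the 13 mitochondrially encoded genes between -2.31 and -3.91, so the values did not overlap. Atp5b, the catalytic beta subunit of complex V, averaged 678 ± 258 CPM in F4/80-high regions and 2144 ± 209 CPM in non-cystic regions (log2 fold change -1.71, SE 0.32, adjusted p = 0.00276). Sdha of complex II, which has no mitochondrially encoded subunit, averaged 202 ± 53.8 CPM in F4/80-high regions and 531 ± 35.5 CPM in non-cystic regions (log2 fold change -1.42, SE 0.25, adjusted p = 0.00197). In F4/80-low against non-cystic regions 0 of the 78 were called in edgeR, 0 had an unadjusted p under 0.05, and DESeq2 called 0 (median -0.24). With kidney 1 left out, edgeR called 32 of 78 lower in F4/80-high against non-cystic (9.93% of all genes) and 0 of 78 in F4/80-high against F4/80-low (3.19%).

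The ratio of mitochondrially encoded to nuclear-encoded counts within each complex compares both genomes within one sum, so that scaling between libraries cancels in it. For complex I it was 0.954, 1.06 and 0.903 in F4/80-high regions of kidneys 1, 2 and 3, 2.22, 1.96 and 2.27 in F4/80-low regions and 2.42, 2.45 and 3.36 in non-cystic regions. The region types did not overlap. For complex IV it was 0.851, 0.952 and 0.937 in F4/80-high regions, 1.45, 1.38 and 1.35 in F4/80-low regions and 1.59, 1.69 and 1.90 in non-cystic regions, again with no overlap. For complex III it averaged 3.69 ± 0.527 in F4/80-high regions, 7.46 ± 1.21 in F4/80-low regions and 9.33 ± 1.93 in non-cystic regions, and for complex V 0.00368 ± 0.00073 in F4/80-high regions, 0.0120 ± 0.00215 in F4/80-low regions and 0.0174 ± 0.00649 in non-cystic regions. For complexes III and V, F4/80-high regions were apart from both others, while F4/80-low and non-cystic regions overlapped. The mean ratio in F4/80-high regions was lower than in non-cystic regions by 2.82-fold for complex I, 2.53-fold for complex III, 1.89-fold for complex IV and 4.72-fold for complex V. In F4/80-low regions it was lower than in non-cystic regions by 1.28-fold, 1.25-fold, 1.24-fold and 1.45-fold for the same complexes, in 3 of 3 kidneys each. These ratios are a description, with no test. That of complex V rests on mt-Atp6 and mt-Atp8 alone, both among the 6 weakly counted genes that held 0.351% of the set's counts. Its level and its fold therefore cannot be ranked against those of the other complexes. In complex IV, mt-Co1 gave 22052 of the 22349 CPM summed over its 3 mitochondrially encoded genes in non-cystic regions, so that ratio follows mt-Co1.

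**Figure D5:**
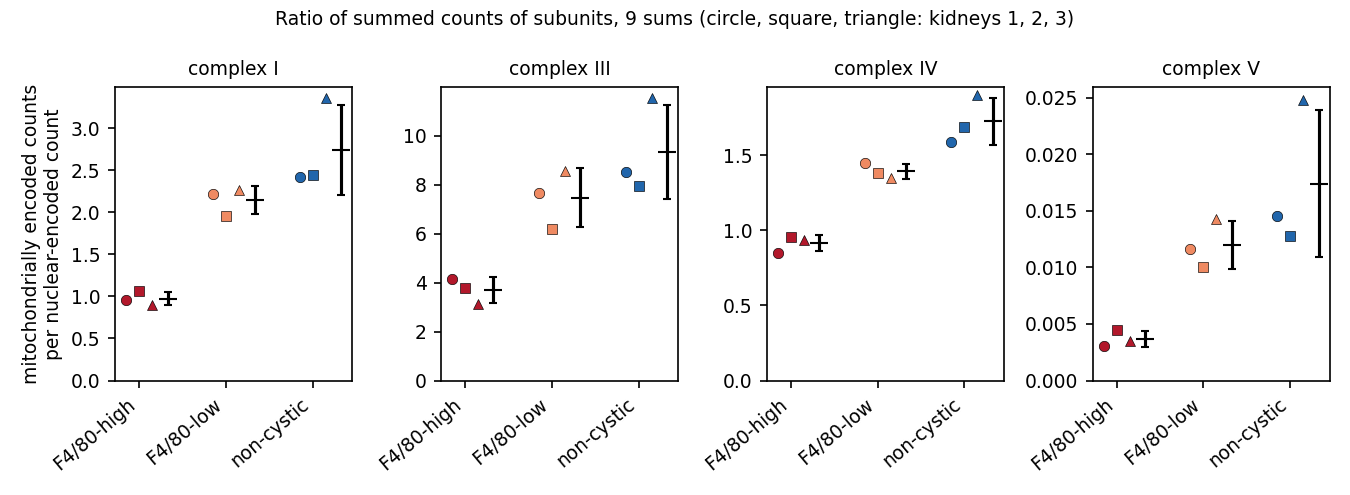
Counts of mitochondrially encoded subunits per count of nuclear-encoded subunits (linear axes from 0) for complexes I, III, IV and V in the 9 sums, with the mean ± SD over 3 kidneys beside the points. F4/80-high regions are lowest in every panel, at 0.903 to 1.06 for complex I against 2.42 to 3.36 in non-cystic regions.

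Nuclear genes that copy and transcribe mitochondrial DNA fell in part, and the difference between these lists and the subunits was not tested. Of 15 genes for copying and packaging mitochondrial DNA, 5 fell in F4/80-high against non-cystic regions and 10 were not called (median log2 fold change -0.35), where 19.5% of all genes tested were called lower. Tfam, which packages the DNA and opens its promoters, averaged 22.6 ± 3.59 CPM in F4/80-high regions and 43.3 ± 3.62 CPM in non-cystic regions (log2 fold change -0.94, SE 0.19, adjusted p = 0.00375). Twnk, the helicase of the replication fork, averaged 28.1 ± 5.76 CPM in F4/80-high regions and 50.1 ± 8.98 CPM in non-cystic regions (log2 fold change -0.83, SE 0.16, adjusted p = 0.00303). Polg, the catalytic subunit of the DNA polymerase, averaged 14.0 ± 1.39 CPM in F4/80-high regions and 14.9 ± 2.81 CPM in non-cystic regions (log2 fold change -0.07, SE 0.19, adjusted p = 0.795) and was not called, whereas its accessory subunit Polg2 averaged 6.1 ± 0.521 CPM in F4/80-high regions and 10.8 ± 1.86 CPM in non-cystic regions (log2 fold change -0.81, SE 0.25, adjusted p = 0.0258). The remaining ones that fell were Top1mt, a mitochondrial topoisomerase, at -0.79 (adjusted p = 0.0291), and Slc25a33, a pyrimidine nucleotide carrier, at -1.85 (adjusted p = 0.000824). Of 8 genes for mitochondrial transcription 5 fell (median -0.66), against 19.5% of all genes, namely Tfam, Polrmt, Tfb2m, Tefm and Mterf3. Polrmt, the RNA polymerase, averaged 4.92 ± 1.23 CPM in F4/80-high regions and 9.24 ± 1.65 CPM in non-cystic regions (log2 fold change -0.93, SE 0.24, adjusted p = 0.0131). Tfb2m, which melts the promoter with it, averaged 13.4 ± 1.81 CPM in F4/80-high regions and 20.7 ± 1.43 CPM in non-cystic regions (log2 fold change -0.63, SE 0.18, adjusted p = 0.0216), and Tefm, its elongation factor, 18.3 ± 5.78 CPM in F4/80-high regions and 30.4 ± 3.5 CPM in non-cystic regions (log2 fold change -0.75, SE 0.24, adjusted p = 0.0313).

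Genes of RNA processing and translation also fell in part. Of 28 genes for processing and turnover of mitochondrial RNA, 10 fell in F4/80-high against non-cystic regions (median -0.48), where 19.5% of all genes tested were called lower. Among the subunits of the RNase P that cuts transfer RNAs out of the long transcripts, Hsd17b10 averaged 169.7 ± 42.0 CPM in F4/80-high regions and 337 ± 47.4 CPM in non-cystic regions (log2 fold change -0.9996, SE 0.27, adjusted p = 0.0142) and Trmt10c averaged 16.0 ± 5.25 CPM in F4/80-high regions and 24.0 ± 5.63 CPM in non-cystic regions (log2 fold change -0.59, SE 0.26, adjusted p = 0.0979). Hsd17b10 passed the test, and neither Trmt10c nor the nuclease subunit (Prorp, under an older symbol in the table) did. Of 11 translation factors tested 8 fell (median -0.74), of 17 mitochondrial tRNA synthetases 8 (-0.65), of 12 outer membrane and import genes 8 (-0.81), and of 78 mitochondrial ribosomal proteins 54 (-0.73), against the same 19.5% of all genes, and 0 rose in any of these lists in edgeR. Tufm, the elongation factor that brings transfer RNAs to the ribosome, averaged 23.0 ± 6.17 CPM in F4/80-high regions and 47.6 ± 12.6 CPM in non-cystic regions (log2 fold change -1.05, SE 0.20, adjusted p = 0.00323). Aars2, the alanine tRNA synthetase, averaged 2.69 ± 0.895 CPM in F4/80-high regions and 6.23 ± 1.24 CPM in non-cystic regions (log2 fold change -1.23, SE 0.30, adjusted p = 0.00928). Vdac1, the main pore of the outer membrane, averaged 152 ± 22.1 CPM in F4/80-high regions and 378 ± 19.4 CPM in non-cystic regions (log2 fold change -1.31, SE 0.22, adjusted p = 0.0016), while Vdac3 averaged 152 ± 21.9 CPM in F4/80-high regions and 166 ± 11.9 CPM in non-cystic regions (log2 fold change -0.13, SE 0.20, adjusted p = 0.646) and was not called. In F4/80-low against non-cystic regions 0 members of the 7 lists from copying to ribosomal proteins were called in edgeR or in DESeq2, and 1 tRNA synthetase had an unadjusted p under 0.05 in edgeR.

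The scaling changed the calls of the last lists and none of the calls of the mitochondrially encoded genes. With total counts in place of TMM, the median of all genes moved to 0.65 in F4/80-high against non-cystic and 0.52 in F4/80-high against F4/80-low, and the split of calls over all genes became 9.16% lower and 41.1% higher, against 19.5% lower and 19.7% higher with TMM. In F4/80-high against non-cystic the median of the 13 genes was -2.41 with total counts and -2.56 with the total of genes outside the set. It was -2.89 with upper quartile factors, -2.99 with DESeq2 size factors and -3.00 with TMM. Relative to the median of all genes these were -3.06, -3.05, -3.04, -3.035 and -3.035. A change of scaling moves all genes nearly alike, so the relative value could hardly differ and is no check of the scaling. All 13 were called lower in both comparisons of F4/80-high regions under each of the 5 scalings. Over all genes these scalings called 9.16% to 19.5% lower against non-cystic and 7.03% to 14.0% lower against F4/80-low regions. The 78 nuclear subunits had 71 calls with total counts and a median of -0.86. The medians of the copying and packaging list (0.26) and of the RNA processing list (0.14) turned positive with total counts. Of the copying and packaging genes 1 was then called lower and 2 higher, and of the RNA processing genes 2 were called lower. With total counts the calls of the other lists came to 0 of 8 for transcription (1 at an unadjusted p under 0.05, higher), 1 of 11 for translation factors, 1 of 17 for tRNA synthetases, 3 lower and 1 higher of 12 for outer membrane and import, and 14 lower and 4 higher of 78 for ribosomal proteins. Among the lists from copying to ribosomal proteins, total counts changed the sign of 3 medians in F4/80-high against F4/80-low. These were copying and packaging (0.35 with total counts, -0.12 with TMM), transcription (0.16 and -0.32) and RNA processing (0.07 and -0.40). In F4/80-low against non-cystic, where 0 were called under either scaling, the medians of the copying and packaging list (0.04 and -0.09) and of the ribosomal proteins (0.01 and -0.10) changed sign as well.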

How the data were processed

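Gene counts were deposited by the authors as 1 table of raw counts, with 32285 rows and 18 columns that were matched to samples by name. Reads had been checked with FastQC 0.11.9, trimmed with fastp 0.20.1 and counted with HTSeq 0.11.0 on mm10/GRCm38, per the submitters' processing notes. The aligner, the annotation, the strand setting and the handling of reads with several places are stated neither there nor in the labels. Libraries were made from microdissected frozen tissue with a low-input kit, per the labels' protocols.

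The 2 libraries of each kidney and region type were summed to 9 sums, genes were filtered with filterByExpr (16034 genes with 99.84% of counts), scaled by TMM and fitted with edgeR 4.0.16 (robust quasi-likelihood, kidney as a block, 4 residual degrees of freedom before shrinkage of the dispersions) under R 4.3.3. The kidney block rests on the labels, which give 1 kidney number to its 3 region types. SEs were taken as the fold change over the square root of F. Alternatives included limma 3.58.1 and DESeq2 1.42.0, and their effect is given in the closing section. The members, gene lists and tests were chosen with earlier results of these data known. Named from each list were its leading 3 genes as written, with some left out for length, and every called gene where 5 or fewer were called. Overlaps and copies come from GENCODE M21 by exact matches of 50-base windows to all other annotated transcripts. Identifiers without a symbol held 0.00837% of counts.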

Additional observations from a re-analysis of the deposited data

Results flagged for a closer look

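Of 45 sets of 6 libraries screened for a value far from the others, 1 was marked: mt-Co3 in non-cystic regions, where the second library of kidney 3 had 267 CPM, with the next at 152 CPM and the lowest at 120 CPM. The gap is 0.780 of the whole range, above Dixon's critical value of 0.625 for 6 libraries. Such a screen marks about 1 in 20 sets by chance. The library also had the largest mitochondrially encoded share of its group, at 15.4% of counts. Without it all 13 genes were still called lower in both comparisons of F4/80-high regions (edgeR). Of 16106 genes in that fit, 2914 were called lower against non-cystic and 2068 against F4/80-low regions.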

How the results depend on the processing

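Over 35 alternatives (34 for the difference of the steps), 0 of the 13 genes changed sign in any comparison. In F4/80-high against non-cystic all 13 were called, except that 11 were called without kidney 1, where 9.93% of all genes were called lower. In F4/80-high against F4/80-low, 10 were called when only both region types entered the fit, where 1293 of 15719 genes were called lower. With the first library of each kidney alone 12 were called, where 1011 of 14645 genes were. Fits without a kidney or library gave 2 to 13 calls, 2 without kidney 1 (3.19% of all genes) and 9 without kidney 2 (8.24%). In F4/80-low against non-cystic the count of 0 became 1 with 18 libraries and a kidney block, 1 with kidney as a random effect and 2 when only both region types entered the fit, and over all genes the calls lower came to 31, 9 and 28 in these fits, against 4. For the difference of the steps it became 3 with DESeq2, 7 with 18 libraries and a kidney block, 5 with the replicate block and 8 with kidney as a random effect, while the genes called lower over the whole table came to 309, 540, 430 and 474 in these fits, against 4 in the fit reported. Leaving out a kidney or library gave 0 to 1 calls, with 1 without kidney 2 and 1 without the first F4/80-high library of kidney 2. The cause of these differences between fits was not tested. Fits of 18 libraries enter the single libraries of a kidney one by one, and these are no separate kidneys. The DESeq2 fit used the same 9 sums as the fit reported. The replicate block (kidney and replicate number) called 13 in F4/80-high against non-cystic, 13 in F4/80-high against F4/80-low and 0 in F4/80-low against non-cystic. Of 14444 genes it called 3496, 2830 and 21 lower in the same comparisons. Replicate numbers within a kidney did not pair the libraries (correlations of deviations from -0.0945 to 0.114), and the block is given only for completeness. Depth limits mt-Nd4l and mt-Atp8 most, at 10 and 20 counts in the F4/80-high sum of kidney 3.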
